A study of Mus musculus with 2 samples.

Results

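*Irg1* and 8 genes grouped as enzymes of the tricarboxylic acid (TCA) cycle were followed in bone marrow-derived macrophages (BMDMs). They are the rows whose symbol is *Irg1*, *Cs*, *Idh1*, *Idh2*, *Idh3a*, *Ogdh*, *Sdha*, *Sdhb* or *Fh1*, that is, 9 of the 37451 genes in the deposited RNA-Seq table, and each symbol had 1 row. *Idh1* encodes a cytosolic enzyme outside the mitochondrial cycle but is counted among the 8 TCA cycle enzymes throughout. The table holds 1 library of WT BMDMs (C57BL/6) and 1 library of ΔM BMDMs (C57BL/6 TTP fl/fl LysMCre), in which the gene of the RNA-binding protein tristetraprolin (TTP), *Zfp36*, is removed in myeloid cells by LysMCre, a Cre gene under control of the lysozyme M promoter. Bone marrow came from mice of 7 to 9 weeks of age. Both groups were labeled with 100 μM 4-thiouridine for 16 h and stimulated with 10 ng/ml of the bacterial lipopolysaccharide LPS for 6 h, the time given in the description of the series, while the sample titles carry the tag LPS7, whose meaning the labels do not give. Unstimulated cells, other time points, proteins and metabolites were not analysed here. Each genotype has 1 library, so differences between WT and ΔM BMDMs stand without replicates and without p-values. A lower level in a bulk sample can come from fewer cells of a type or from less RNA per cell, and these cannot be told apart.

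The TCA cycle oxidizes acetyl groups in the mitochondrial matrix. Citrate synthase (*Cs*) joins acetyl-CoA and oxaloacetate to citrate, which is turned into isocitrate by way of cis-aconitate, isocitrate dehydrogenases make 2-oxoglutarate, the 2-oxoglutarate dehydrogenase complex makes succinyl-CoA, succinyl-CoA ligase makes succinate, succinate dehydrogenase makes fumarate, and fumarase (*Fh1*) makes malate. In macrophages exposed to LPS, *Irg1*, later renamed *Acod1*, encodes an enzyme that takes cis-aconitate out of the cycle and decarboxylates it to itaconate. Itaconate is a competitive inhibitor of succinate dehydrogenase, and itaconate and succinate both accumulate in activated macrophages. TTP binds AU-rich elements, of which the pentamer AUUUA is the core, and recruits enzymes of mRNA decay.

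The sequences of TTP binding sites that the study mapped at 6 h of LPS are shown first, because *Irg1* is the one gene of the 9 with such a site. Of the other cycle genes examined with them, *Idh3b*, which encodes a subunit of the enzyme that contains the *Idh3a* product, had 1 site. No site was listed for the 8 TCA cycle enzymes among the 9 genes or for the other 9 cycle genes. The site list of *Irg1* is shortened in the copy used, and 6 of its sites could be read. All 7 sequences matched NCBIM37, the mouse assembly named mm9, at the positions given. They are written as DNA from 5′ to 3′ on the strand of the transcript, with ATTTA in capitals, and each is introduced by its place in the gene.

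*Irg1* intron 4, chr14:103451332-103451361 (+), 30 nt of a site of 87 nt: ttATTTATTTATTTATTTATTTATTTAttt
*Irg1* intron 4, chr14:103451268-103451282 (+): cattgtgtattgatc
*Irg1* intron 4, chr14:103451383-103451396 (+): tctaatttgtgcta
*Irg1* 3′ UTR in exon 5, chr14:103454955-103454969 (+): ttgtaatgttttctg
*Irg1* 3′ UTR in exon 5, chr14:103454972-103454988 (+): gaattATTTAttaactc
*Idh3b* intron 4, chr2:130108940-130108953 (-): atttttaaaaattt

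The longest *Irg1* site covers chr14:103451288-103451374, is 78.2% A or T and holds 8 overlapping copies of ATTTA, each of them within the longer motif TATTTAT. A site of 6 nt, catatg, was also read in intron 4. The 3′ UTR of *Irg1* carried 1 ATTTA, and it lies within a listed site. The *Idh3b* site consists of A and T alone, without an ATTTA.

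*Irg1* (ENSMUSG00000022126) spans chr14:103446194-103455790 on the plus strand and has 1 annotated transcript of 2623 nt with 5 exons. Intron 4, from 103450743 to 103453728, is 2986 nt long and carried 13 ATTTA and 10 TATTTAT on the transcript strand, and its longest uninterrupted repeat consisted of 8 units of ATTT. Introns 1 and 3 carried 2 and 4 ATTTA, and intron 2, of 172 nt, carried 0. Among 20903 mouse introns within 20% of the length of intron 4, 96.1% had at least 1 ATTTA, so its presence alone sets *Irg1* apart from few introns. By comparison, 0.660% had as many TATTTAT and 0.761%, or 159 introns, had an ATTT repeat as long. These shares describe letters in the reference assembly and not binding.

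In 3′ UTRs, *Irg1* had 1 ATTTA, also counted as 1 TATTTAT, in 1065 nt. Of the 2680 mouse 3′ UTRs within 20% of that length, 73.8% had an ATTTA and 24.0% had a TATTTAT. Among the TCA cycle enzymes, *Cs* had 3 ATTTA and 2 TATTTAT in 1347 nt, and 8.90% of 3′ UTRs of like length had as many TATTTAT. *Idh3a*, *Ogdh* and *Fh1* had 4 ATTTA each. In *Fh1*, 1050 nt, none of them was within a TATTTAT, whereas *Idh3a*, 1296 nt, and *Ogdh*, 3135 nt, had 1 TATTTAT each. *Idh2* had 2 ATTTA, *Sdha* and *Sdhb* had 1 each, and *Idh1* had 0 in 849 nt. Thus 8 of the 9 genes carried an ATTTA in the 3′ UTR of the transcript examined, against 61.3% of the 20007 genes with an annotated 3′ UTR, whatever its length, and 4 carried a TATTTAT, against 23.8%. No site was listed for 7 of the 8 genes with the pentamer, so ATTTA in the 3′ UTR did not imply a listed TTP site. The study discarded sites of low read signal, and that signal also depends on mRNA level, so an unlisted gene may still be bound. Of the 9 mRNAs, *Irg1* had the highest level, and the part of level in the listing of sites was not tested.

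The deposited values are FPKMs, that is, fragment numbers scaled to exon length and to all mapped fragments, so levels of genes of different length can be compared. Depth, estimated from the steps between low FPKMs, was about 37000000 fragments for WT and 32700000 for ΔM, and 95% Poisson intervals calculated from them cover counting error only. The targeted gene *Zfp36* had 65.3 FPKM in WT against 16.7 in ΔM, a log2 ratio of ΔM to WT of -1.90. All 8 macrophage markers examined were above 1 FPKM in both libraries, including the macrophage surface protein gene *Emr1* at 380 and 357 FPKM. *Lyz2*, the lysozyme M gene whose promoter drives the Cre of ΔM, had 2481 FPKM in WT against 1356 in ΔM, the lowest log2 ratio of the 8 (-0.87). The highest was that of the receptor kinase gene *Mertk* (0.51), with 2.15 FPKM in WT against 3.48 in ΔM. Of 11 markers of T and NK cells, granulocytes, dendritic cells, stroma, endothelium, epithelium and red cells, all stayed under 1 FPKM in both libraries. Their sum was 0.790 FPKM in WT and 0.530 FPKM in ΔM, most of it from *Pecam1*, and *Cd3e*, *Ncr1*, *Ly6g*, *Elane* and *Hbb-b1* were at 0.

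*Irg1* was the most abundant of the 9 mRNAs in both genotypes. Its level was 491 FPKM in WT (95% counting interval 486 to 496 FPKM) and 369 FPKM in ΔM (364 to 373 FPKM). The level was thus lower in the ΔM library, with a log2 ratio of -0.41 after adding 1 FPKM to both values, or 1.33-fold higher in WT. Without the added FPKM, counting error alone placed the log2 ratio between -0.44 and -0.39. The values rest on about 44039 fragments in WT and 29215 in ΔM, and no window of 100 nt from the transcript occurred elsewhere in the genome with at least 97 matching bases.

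Among the 8078 protein-coding genes that averaged 1 FPKM or more, *Irg1* ranked 50 in WT and 75 in ΔM. Of all 10765 genes above that mean, 11.7% had a lower log2 ratio than *Irg1*, and of the protein-coding genes 10.3% did. There were 131 protein-coding genes with a mean between 0.5 and 2 times that of *Irg1*, their median log2 ratio was 0.02, and 7 of them, or 5.34%, had a lower ratio than *Irg1*. The share with a lower ratio was thus smaller among protein-coding genes of similar level than among all protein-coding genes. The 5 protein-coding genes nearest to *Irg1* in log2(FPKM + 1) over the 2 libraries were *Tnip3*, *Cybb*, *AW112010*, *Cst3* and *H2-K1*. *Tnip3*, which encodes an inhibitor of NF-κB signaling, was nearest and was also lower in ΔM, with 511 FPKM in WT against 335 in ΔM. The NADPH oxidase subunit gene *Cybb* was at 509 and 449 FPKM, and *AW112010* was at 471 and 449 FPKM. The cystatin C gene *Cst3*, at 449 and 452 FPKM, and the MHC class I gene *H2-K1*, at 401 and 408 FPKM, were close to equal in both libraries. Likeness over 2 libraries is mainly likeness in level.

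**Figure D1:**
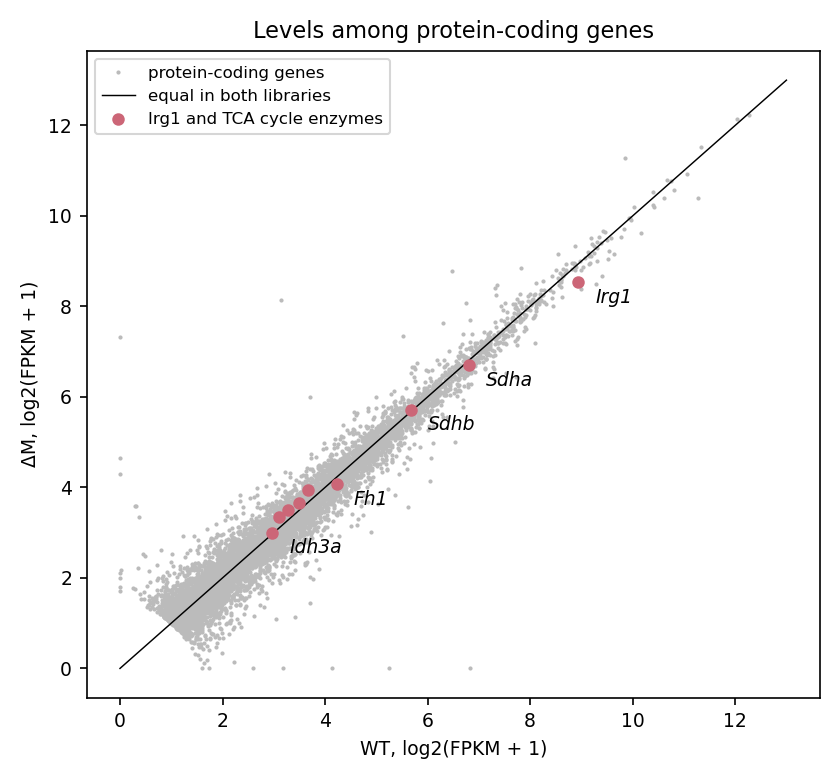
Each grey point is 1 protein-coding gene averaging 1 FPKM or more, placed by its log2(FPKM + 1) in the WT library (x axis) and in the ΔM library (y axis), and the line marks equal values. *Irg1* (491 and 369 FPKM) lies below the line among the most abundant mRNAs, whereas the 8 TCA cycle enzymes lie close to it.

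The 8 TCA cycle enzymes spanned a wide range of levels, and after adding 1 FPKM none of them differed by 1.2-fold between the libraries. From *Idh3a* to *Sdha* the level changed 16.3-fold in WT and 14.7-fold in ΔM, whereas the log2 ratios of ΔM to WT stayed between -0.14 for *Fh1* and 0.26 for *Idh1*, with a median of 0.10. The median of all 10765 genes was 0.03, with quartiles of -0.19 and 0.26, and the protein-coding genes had a median of -0.0015 and quartiles of -0.19 and 0.18. Of the 8 enzymes, *Cs* (0.24), *Idh1* (0.26) and *Idh2* (0.22) lay above the protein-coding upper quartile, and the others lay between the protein-coding quartiles. The summed level of the 8 enzymes was 225 FPKM in WT and 223 FPKM in ΔM, most of it from *Sdha* and *Sdhb*. With a fold of 1.2 as the threshold, 1 of the 9 genes was called, *Irg1* with the lower level in ΔM, while 44.1% of all genes and 37% of protein-coding genes passed it. With 0.1 FPKM added in place of 1 FPKM, *Cs* and *Idh1* also passed, both higher in ΔM, which made 3 of 9, while 50.3% of all genes then passed. No gene of the 9 passed 1.5-fold, which 18.7% of all genes passed, or 2-fold, which 9.31% passed. All 9 are protein-coding, and these changes were rarer among the 8078 protein-coding genes. Of those, 388 were higher and 433 lower in ΔM past 1.5-fold, and 203 passed 2-fold in either direction. Of the 9 genes, 6 were higher in ΔM at any size, against 53.8% of all genes and 4000 of the 8078 protein-coding genes. The share called was thus below that of the whole table, over 9 genes only.

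**Figure D2:**
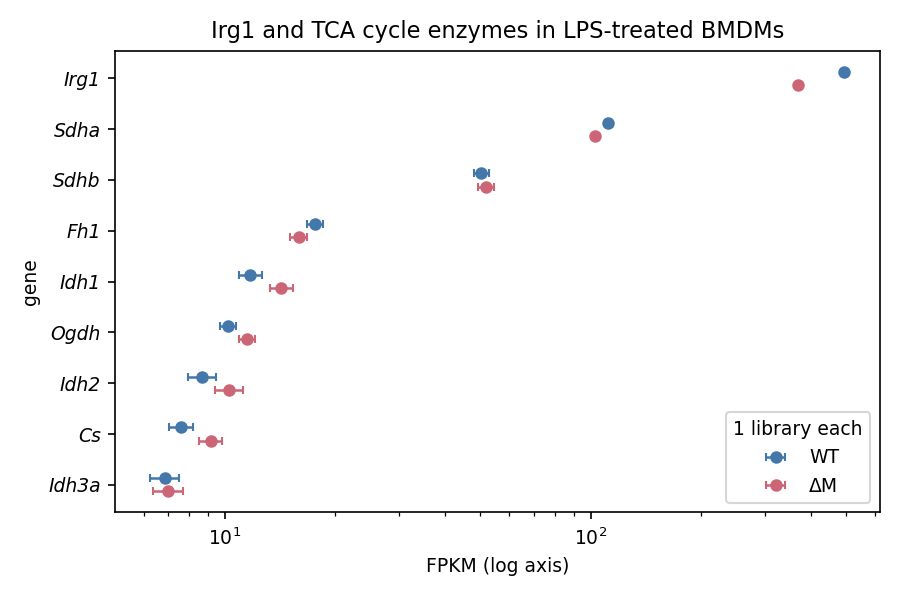
FPKM on a log axis in the WT library (blue) and the ΔM library (red), with 95% Poisson counting intervals from the estimated depth, for *Irg1* and the 8 TCA cycle enzymes in the order of their WT level. The order is the same in both libraries, from *Irg1* down to *Idh3a*, and *Irg1* has the widest gap between libraries in FPKM.

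The order of the 9 genes by level was the same in both libraries, with *Irg1* followed by *Sdha*, *Sdhb*, *Fh1*, *Idh1*, *Ogdh*, *Idh2*, *Cs* and *Idh3a*. Not all neighbours were separated. In WT the counting intervals of *Idh2* and *Cs* and those of *Cs* and *Idh3a* overlapped. In ΔM those of *Fh1* and *Idh1*, *Ogdh* and *Idh2*, and *Idh2* and *Cs* overlapped. Expressed against the cycle, *Irg1* was 2.19 times the sum of the 8 enzymes in WT and 1.65 times in ΔM. The ratio of *Irg1* to *Sdha*, a subunit of the enzyme that itaconate inhibits, was 4.40 in WT and 3.58 in ΔM.

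Citrate formation came first in the cycle and was among the lowest levels. *Cs* (chr10:127774888-127799535, plus strand) had 7.60 FPKM in WT against 9.16 in ΔM, with a log2 ratio of 0.24. The counting interval of the ratio without the added FPKM ran from 0.12 to 0.42 on the log2 scale, so the ΔM library had the higher level beyond counting error. Counting intervals of log2 ratios given below are likewise those of the ratio without the added FPKM, while the log2 ratios beside them include it. Of 273 windows from the *Cs* transcript, 34 or 12.5% occurred elsewhere in the genome. Reads from those stretches can be lost when only uniquely mapped reads are kept, and the loss was not measured.

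Isocitrate dehydrogenase exists as NADP-dependent enzymes in the cytosol (*Idh1*) and in mitochondria (*Idh2*) and as the NAD-dependent enzyme of the cycle, whose catalytic subunit is encoded by *Idh3a*. *Idh1* (chr1:65205190-65233053, minus strand) had 11.8 FPKM in WT against 14.3 in ΔM, a log2 ratio of 0.26 with a counting interval from 0.13 to 0.43. *Idh2* (chr7:87239732-87260278, minus strand) was at 8.67 and 10.3 FPKM, a log2 ratio of 0.22 with an interval from 0.07 to 0.43. Both NADP-dependent enzymes thus had a higher level in the ΔM library beyond counting error, by less than 1.2-fold after adding 1 FPKM. *Idh3a* (chr9:54434288-54452468, plus strand) had 6.85 FPKM in WT against 7.01 in ΔM, and its log2 ratio of 0.03, with an interval from -0.16 to 0.22, turned to -0.0093 when ratios were centred on the median of genes of at least 10 FPKM. No difference of *Idh3a* was detectable at this depth.

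*Ogdh* (chr11:6191636-6256645, plus strand), the E1 component of the 2-oxoglutarate dehydrogenase complex, had 10.2 FPKM in WT against 11.5 in ΔM. Its log2 ratio was 0.16 with a counting interval from 0.06 to 0.28. *Ogdh* has 11 annotated transcripts, the most of the 9 genes, and the deposited value is 1 level for the gene.

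Succinate dehydrogenase, which is also complex II of the respiratory chain, contributed the 2 highest levels of the 8 enzymes. *Sdha* (chr13:74459702-74487728, minus strand), the flavoprotein subunit, had 112 FPKM in WT against 103 in ΔM. Its log2 ratio was -0.12 with an interval from -0.16 to -0.08, a small difference that exceeded counting error, on about 11144 and 9083 fragments. *Sdhb* (chr4:140517118-140535108, plus strand), the iron-sulfur subunit, had 50.2 FPKM in WT against 51.7 in ΔM, with a log2 ratio of 0.04 and an interval from -0.06 to 0.14. Of the summed level of the 8 enzymes, *Sdha* and *Sdhb* together made up 72.0% in WT and 69.4% in ΔM.

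*Fh1* (chr1:177530505-177555766, minus strand), encoding fumarase, had 17.7 FPKM in WT against 15.9 in ΔM. With a log2 ratio of -0.14 and an interval from -0.26 to -0.04, it had the lowest ratio of the 8 enzymes. *Fh1* overlaps *Kmo*, a gene on the opposite strand, over 5255 nt, and the use of strand in counting is not given in the sources used here. *Kmo* had 4.56 FPKM in WT against 3.13 in ΔM, and its part in the *Fh1* value was not tested. The genes that overlap *Cs* and *Sdha* were at 0 in both libraries. With the exception of *Cs*, no window of the 9 transcripts occurred elsewhere.

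**Figure D3:**
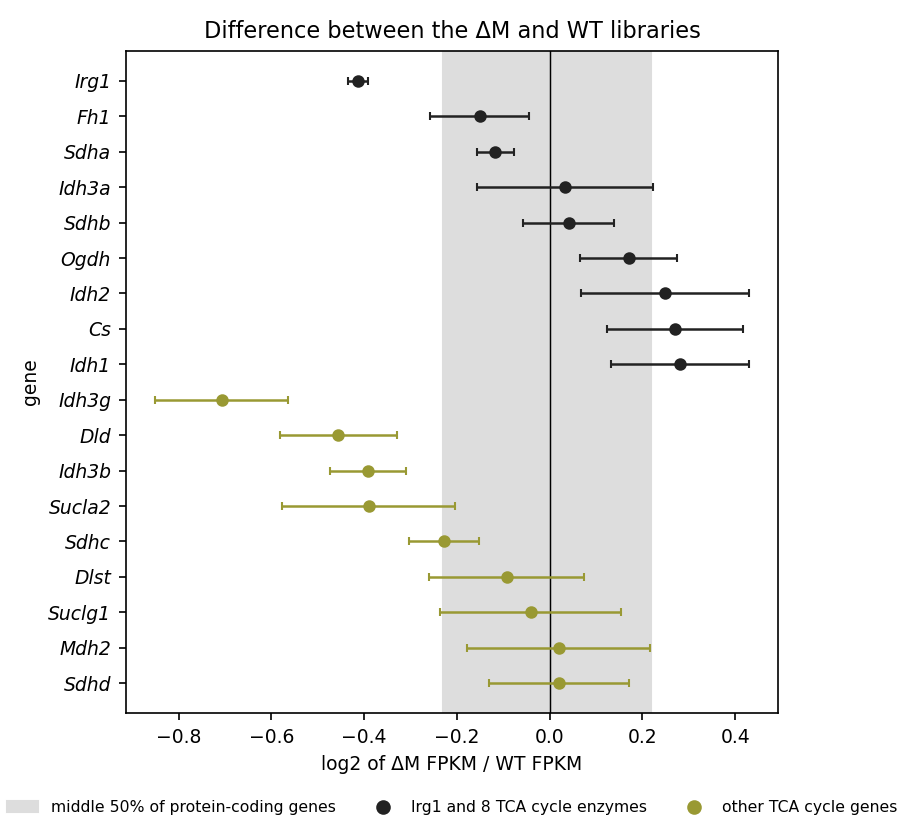
Log2 ratio of ΔM FPKM to WT FPKM, without an added FPKM, for *Irg1* and the 8 TCA cycle enzymes (black) and 9 other TCA cycle genes (olive), with 95% counting intervals, beside the quartile range of protein-coding genes (grey, -0.23 to 0.22). *Irg1* and, among the other genes, *Idh3g*, *Dld*, *Idh3b* and *Sucla2* lie left of the grey range, and *Idh2*, *Cs* and *Idh1* lie right of it.

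The rest of the cycle was described from 10 genes, *Idh3b*, *Idh3g*, *Dlst*, *Dld*, *Sucla2*, *Suclg1*, *Suclg2*, *Sdhc*, *Sdhd* and *Mdh2*. *Suclg2*, the GTP-forming ligase subunit, was under 1 FPKM, at 0.0900 and 0.120 FPKM, and 63.3% of its windows occurred elsewhere. The 9 other genes had log2 ratios between -0.68 for *Idh3g* and 0.02 for *Sdhd*, with a median of -0.23. Past 1.2-fold, 4 of these 9 were lower in ΔM (*Idh3b*, *Idh3g*, *Dld* and *Sucla2*) and 0 were higher, against 19.2% and 24.9% of all genes. Past 1.5-fold, 1 was lower (*Idh3g*), against 7.51% of all genes. Of the 8078 protein-coding genes, 1529 were lower past 1.2-fold, 1458 were higher past 1.2-fold and 433 were lower past 1.5-fold. The 8 enzymes and these 9 genes thus had medians on opposite sides of 0, and whether the groups differ was not tested.

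Subunits of 1 complex differed in level and in their ratio between the libraries. The partners of *Idh3a*, *Ogdh*, *Sdha* and *Sdhb* are named with values here, a choice made after their values were seen. *Idh3b* had 56.7 FPKM in WT against 43.2 in ΔM, a log2 ratio of -0.38, and *Idh3g* was at 27.9 and 17.1 FPKM, a log2 ratio of -0.68. Both partners in the NAD-dependent enzyme were therefore lower in ΔM, while *Idh3a* was nearly level. As a result *Idh3b* stood at 8.28 times *Idh3a* in WT and 6.16 times in ΔM, and *Idh3g* at 4.08 and 2.44 times. *Idh3b* overlaps *Nop56* on the opposite strand by 5 nt, and *Nop56* had 45.8 FPKM in WT against 22.3 in ΔM. Its part in the *Idh3b* value was not tested. Of the annotated transcripts, 2 of 4 for *Idh3b* and 6 of 10 for *Idh3g* are retained-intron forms, and how fragments were divided among them is not visible in gene values.

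In the 2-oxoglutarate dehydrogenase complex, *Dlst*, the succinyltransferase, had 8.17 FPKM in WT against 7.66 in ΔM, with a log2 ratio of -0.08. *Dld*, the dihydrolipoamide dehydrogenase shared with the pyruvate dehydrogenase complex, was at 18.1 and 13.2 FPKM, with a log2 ratio of -0.43. The ratio of *Dld* was lower than that of *Ogdh*, 0.16, and the counting intervals of *Dld* and *Ogdh* did not overlap.

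The membrane anchors of succinate dehydrogenase were unequal in level. *Sdhc* had 142 FPKM in WT against 122 in ΔM, a log2 ratio of -0.23, whereas *Sdhd* was at 18.9 and 19.1 FPKM, a log2 ratio of 0.02. *Sdhc* was thus 7.55 times *Sdhd* in WT and 6.36 times in ΔM, although the subunits occur in equal number in the enzyme. *Sdha* was 2.22 times *Sdhb* in WT and 1.99 times in ΔM. The coding transcripts of *Sdhc* have a median of 815 nt and the longest has 3171 nt, so its FPKM depends on the transcript to which fragments were assigned. Of the assembly factors of the enzyme, *Sdhaf2* was at 2.88 and 3.38 FPKM, and *Sdhaf1* and *Acn9* were under 1 FPKM in both libraries. The remaining factor examined, *Sdhaf4*, had no row under that symbol.

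**Figure D4:**
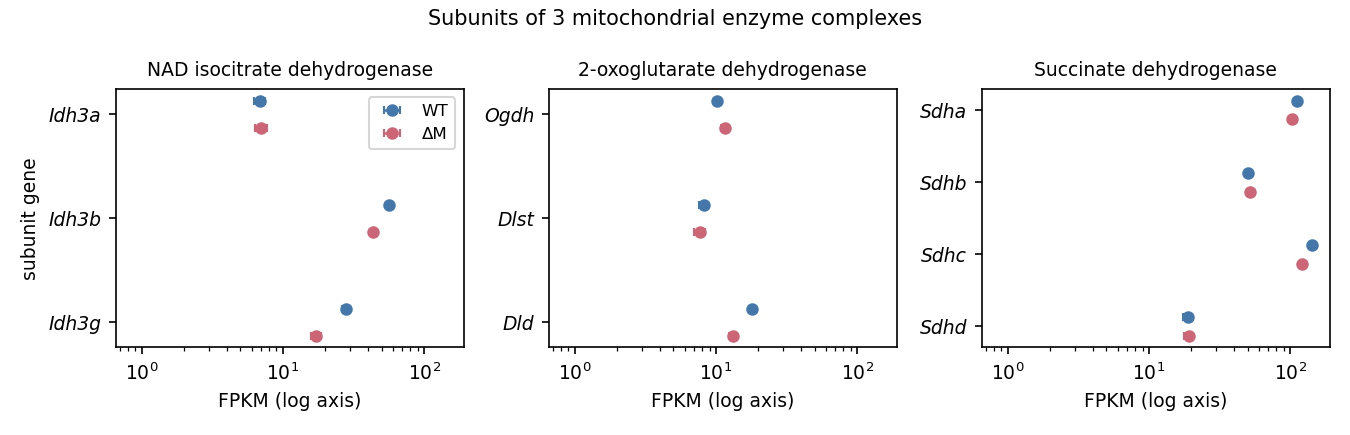
FPKM on a log axis of the subunit genes of NAD-dependent isocitrate dehydrogenase, the 2-oxoglutarate dehydrogenase complex and succinate dehydrogenase in the WT (blue) and ΔM (red) libraries, with 95% counting intervals. *Idh3b* and *Idh3g* lie above *Idh3a* and are lower in ΔM, and *Sdhd* lies far below *Sdha* and *Sdhc*.

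Itaconate is degraded in mitochondria through itaconyl-CoA and citramalyl-CoA. The list for this route held *Clybl*, *Auh*, *Sucla2*, *Suclg1* and *Suclg2*, of which 4 averaged 1 FPKM or more. The median log2 ratio was 0.18, and past 1.2-fold 2 of the 4 were higher in ΔM and 1 was lower, where 24.9% of all genes were higher and 19.2% lower. *Clybl*, the citramalyl-CoA lyase, had the highest log2 ratio of the 4, 0.44, and the lowest level, with 1.77 FPKM in WT against 2.75 in ΔM, on about 48 and 66 fragments. *Sucla2*, the ADP-forming ligase subunit, had the lowest log2 ratio, -0.36, with 11.9 FPKM in WT against 9.11 in ΔM. The mRNAs of this route were far less abundant than *Irg1* in both libraries, with 15.9 FPKM as the highest value.

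Lists of neighbouring pathways gave the setting of these values. In glycolysis, 15 of 15 genes averaged 1 FPKM or more, with a median log2 ratio of 0.23 and, past 1.2-fold, 6 higher in ΔM and 1 lower, beside the same 24.9% and 19.2% of all genes. The hexokinase gene *Hk1* was highest in ratio, with 27.7 FPKM in WT against 39.4 in ΔM, and *Gapdh* was lowest, at 3.59 and 2.54 FPKM. These values are uncertain, because 87.2% of the *Gapdh* windows occurred elsewhere and 8 of the 15 genes had at least 50% of their windows elsewhere. Among the other 7, chosen after the windows were seen, the median was 0.02 and 2 passed 1.2-fold. In the respiratory chain, 17 of 18 genes were found and averaged 1 FPKM or more, with a median of -0.02, 3 past 1.2-fold higher in ΔM and 0 lower, beside the same shares. *Ndufs3*, a subunit of complex I, was highest in ratio, at 1.65 and 2.76 FPKM with 82.1% of its windows elsewhere. *Ndufb8*, also of complex I, was lowest, at 60.7 and 51.7 FPKM with 0 windows elsewhere.

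**Figure D5:**
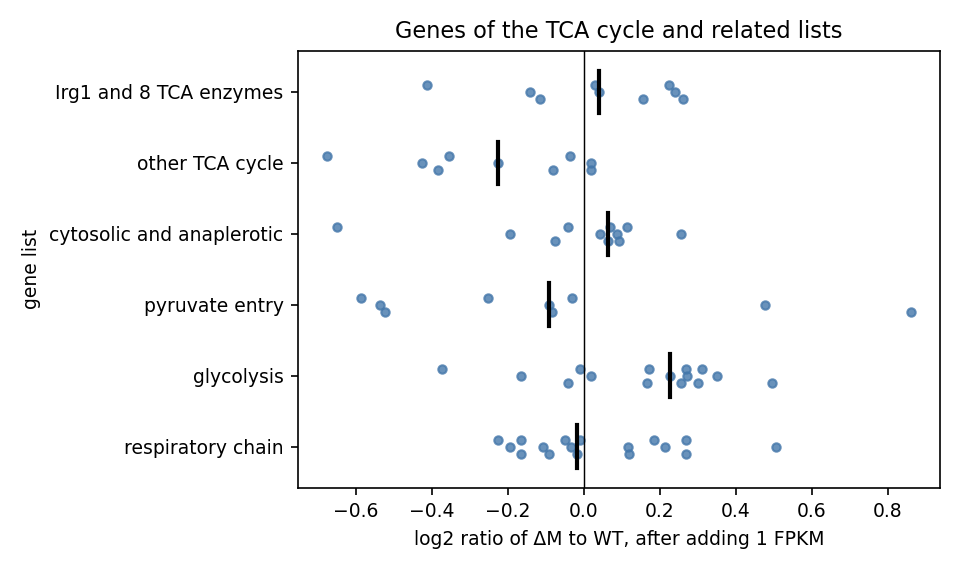
Log2 ratio of ΔM to WT after adding 1 FPKM, with 1 point for each gene averaging 1 FPKM or more and a black line at the median of each list. The point of *Irg1*, -0.41, stands apart from the 8 TCA cycle enzymes in the top row, which lie between -0.14 and 0.26.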

How the data were processed

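RNA-Seq of rRNA-depleted RNA gave 1 paired-end library per genotype. The authors trimmed reads with Cutadapt, aligned them to mm9 with Segemehl and, from the reads with a unique position, obtained FPKM on Ensembl exons with Cufflinks. The deposited FPKMs have 2 decimals and 1 value per gene, and 1 gene has no number in ΔM. Columns were assigned by name, and 0 columns of other samples were present.

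For each gene averaging 1 FPKM or more, 1 FPKM was added to both values before their log2 ratio (ΔM over WT) was taken, which understates changes of low genes. A call is a fold of 1.2, because 1 library per genotype allows no test. Depth was estimated as the number of fragments that turns low FPKMs of genes with 1 transcript into whole fragments (within 0.1 for 90.0% of 1427 values in WT and 91.0% of 1345 in ΔM, where 20.0% are so by chance). The mean fragment length came out at 200 nt. Intervals (95%) used these estimates and the median coding transcript length, are approximate and cover counting error only. Those of ratios were calculated for the ratio without the added FPKM. Ratios and depth were tested on simulated data.

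Gene models came from GENCODE M1 on NCBIM37, which held 37039 identifiers. Coordinates are counted from 1. ATTTA and TATTTAT, which contains ATTTA, were counted on the transcript strand with overlaps. Windows of 100 nt in steps of 10 nt were aligned with minimap2 2.31. Site sequences came from the study's supplementary list. Python 3.11.15 was used with scipy 1.17.1, pandas 2.3.3, numpy 2.4.6 and matplotlib 3.10.9.

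The 9 genes and the lists were chosen with earlier results of these data known. The genes named are the 9, the highest and lowest log2 ratio of each list, the 5 protein-coding genes nearest to *Irg1* and *Zfp36*, and the text marks those picked once values were known. From the lists, 1 cycle gene and 1 marker are not reported here, and with that cycle gene the median of the other cycle genes is -0.15 in place of -0.23. The marker, motif and neighbour genes are named for the checks. Alternatives covered the pseudocount, the scaling, the filter and the fold.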

Additional observations from a re-analysis of the deposited data

How the results depend on the processing

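The log2 ratio of *Irg1* stayed negative under all 4 alternatives of pseudocount and scaling, with -0.45 when ratios were centred on the median of genes of at least 10 FPKM. The medians of the 8 TCA cycle enzymes and of the whole list of other cycle genes kept their sign under the same alternatives. Of the 9 genes, the number past 1.2-fold, 1 as reported, was 3 with a pseudocount of 0.1 FPKM, where *Cs* and *Idh1* were added, 2 after scaling to the same protein-coding sum, where *Idh1* was added, and 0 at 1.5-fold or 2-fold. *Cs* and *Idh1* thus lie at the threshold. *Idh3a* turned to -0.0093 with centring. The share of all genes past 1.2-fold moved to 28.3% with a pseudocount of 5 FPKM and to 27.2% without a filter. Of the 57 alternatives, 49 left the result where it was.

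No paired analysis was possible because each genotype has 1 library, and leaving out a library leaves no comparison. Counting intervals are narrow for *Irg1* and *Sdha* and wide for *Idh3a* and *Idh2*. They hold no variation between cultures, mice or library preparations, so a log2 ratio whose interval leaves out 0 describes these 2 libraries only.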

Other observations

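Pyruvate enters the cycle through its mitochondrial carrier and the pyruvate dehydrogenase complex. Of 12 genes of this step, 9 averaged 1 FPKM or more. Their log2 ratios of ΔM to WT had a median of -0.09, and past 1.2-fold 2 were higher in ΔM and 3 were lower, where 24.9% and 19.2% of all genes were so. *Brp44l*, the carrier subunit later named *Mpc1*, had the highest ratio, with 2.14 FPKM in WT against 4.70 in ΔM, a log2 ratio of 0.86 on about 57 and 111 fragments. *Pdhb*, the E1 beta subunit, had the lowest, at 3.88 and 2.25 FPKM, a log2 ratio of -0.59. Both values are uncertain, because 72.5% of the *Brp44l* windows and 80.6% of the *Pdhb* windows occurred elsewhere in the genome. The other genes past 1.2-fold, named after their values were seen, had fewer such windows. The inhibitory kinase gene *Pdk1* had 19.2 FPKM in WT against 27.0 in ΔM, a log2 ratio of 0.48, with 0.196% of windows elsewhere. The E1 alpha subunit gene *Pdha1* was at 9.20 and 6.09 FPKM, a log2 ratio of -0.52, with 2.91% of windows elsewhere. The second carrier subunit gene, *Brp44*, was at 4.59 and 2.85 FPKM, a log2 ratio of -0.54, with 8.60% of windows elsewhere.

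Among 13 genes of cytosolic citrate and malate metabolism, glutamine use and mitochondrial carriers, 11 averaged 1 FPKM or more and their median log2 ratio was 0.06. Of these, 1 passed 1.2-fold, where 44.1% of all genes did. It was *Aco1*, the cytosolic aconitase that without its iron-sulfur cluster acts as an iron-regulatory RNA-binding protein. *Aco1* had 8.97 FPKM in WT against 5.35 in ΔM, a log2 ratio of -0.65, with 0.706% of windows elsewhere. The dicarboxylate carrier gene *Slc25a10*, the highest in ratio, was at 18.6 and 22.3 FPKM, a log2 ratio of 0.25.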
